A study of Mus musculus with 19 samples.

Results

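Hepcidin and 8 further genes of systemic and cellular iron handling, with the second mouse hepcidin gene, were followed in liver RNA of mice. The animals had been given an ASO (antisense oligonucleotide), a synthetic strand that pairs with a chosen RNA and lowers it. The 10 genes were taken by symbol: Hamp, Hamp2, Bmp6, Smad7, Tfr2, Tfrc, Trf, Slc40a1, Fth1 and Ftl1, out of 24421 symbols in the count table. All 10 passed the filter on low counts that left 13293 genes for testing. The mice were on a purified normal diet and had 2 injections a week for 3 weeks of an ASO against Plin5, the gene of the lipid droplet coat protein perilipin 5, or of a control ASO. All were fasted overnight, and those called re-fed then had 4 h of food before the liver was taken. Fasted control ASO comprised 4 libraries (numbered 1, 3, 4 and 5), and fasted PLIN5 ASO, re-fed control ASO and re-fed PLIN5 ASO comprised 5 libraries apiece. Strain, sex and age are not given in the labels used here, and the labels name 1 PLIN5 ASO, so effects of lower Plin5 and other effects of that oligonucleotide cannot be told apart.

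Hepcidin, the peptide made from Hamp, is secreted by hepatocytes, binds the iron exporter ferroportin (Slc40a1) on macrophages and gut cells and causes its loss, so that less iron reaches the blood. Its transcription in liver is driven by bone morphogenetic proteins such as BMP6, which act through SMAD proteins, and by interleukin 6 through STAT3 in inflammation. SMAD7 is an inhibitor that the BMP pathway induces and that damps it. Inside cells, iron regulatory proteins bind short RNA hairpins (iron-responsive elements) and set translation of the ferritins and ferroportin and the stability of the Tfrc transcript.

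Hamp and Hamp2 lie 17686 bp apart on chromosome 7 of GRCm38, on the minus strand, at 30942368 to 30944032 and 30922372 to 30924681, with 3 exons each in the annotated coding form. Hamp2 is a close copy of Hamp in mouse. The Hamp transcript of 410 nt and the Hamp2 form of 420 nt were 94.6% identical over the aligned bases. Of all 50-nt stretches of the Hamp transcript, 16.6% also occur in this Hamp2 form, and of all 75-nt stretches 3.87%, so reads from one gene can be counted for the other, and no label states how the authors treated such reads. The promoters are shown so that the hepcidin copies can be compared letter by letter. Both stretches, credited to RefSeq (GRCm38.p6, minus strand, 5′ to 3′), run from 212 to 13 bases before the RefSeq start, at chr7:30944042-30944241 for Hamp and chr7:30924194-30924393 for Hamp2. Another annotated form of Hamp2 begins further upstream, so the Hamp2 stretch lies inside the gene bounds given above. The first capitals mark the hexamer GGCGCC, known as the core of the BMP-responsive element of the hepcidin promoter, or its counterpart in Hamp2. The second capitals mark TTCTTGGAA, a match to the STAT motif TTCNNNGAA.
Hamp: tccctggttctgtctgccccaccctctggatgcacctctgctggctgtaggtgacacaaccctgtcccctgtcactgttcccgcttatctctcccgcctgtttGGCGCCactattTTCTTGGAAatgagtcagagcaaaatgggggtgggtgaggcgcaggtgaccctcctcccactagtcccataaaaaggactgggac
Hamp2: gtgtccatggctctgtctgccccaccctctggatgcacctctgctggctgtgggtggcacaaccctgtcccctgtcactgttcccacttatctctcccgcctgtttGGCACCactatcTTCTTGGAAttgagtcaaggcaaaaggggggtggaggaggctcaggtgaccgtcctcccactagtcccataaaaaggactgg
The stretches were 92.4% identical over 197 aligned bases. Counted from the 5′ end of the hexamer, with Hamp as the reference, Hamp2 carries G4A, and both carry the STAT match 6 bases further on. Searched on both strands in the 250 bases before the start of 32851 promoters, GGCGCC was present in 9.59% and TTCNNNGAA in 7.02%. Among the members with a promoter in the table (Hamp, Hamp2, Tfrc, Tfr2, Fth1, Ftl1 and Bmp6), GGCGCC was found for Hamp and for 1 of the Tfrc promoters, and TTCNNNGAA for Hamp and Hamp2. These are letter matches, which show neither binding nor use.

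The iron-responsive elements are shown because they mark the members under control of iron regulatory proteins, which act on translation for Slc40a1, Fth1 and Ftl1 and on transcript stability for Tfrc. The search took a bulged C, 5 bases, the loop CAGTGN (in capitals) and 5 bases that pair with the former 5, G-U pairs included, in the longest coding transcript of each gene (for Fth1 the form of 929 nt). Hairpins that depart from this pattern were not sought, so the list may be incomplete. Such a hairpin, shown as 28 bases, was found once in the 5′ UTR of Slc40a1, Fth1 and Ftl1, and 4 times in the 3′ UTR of Tfrc, in the annotated transcripts of GRCm38. Smad7 is left out of this list, so its transcript is not described here as having or lacking such a hairpin.
Slc40a1 (chr1:45925466-45925493, minus strand): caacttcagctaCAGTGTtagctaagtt
Fth1 (chr19:9982732-9982759, plus strand): ttcctgcttcaaCAGTGCttgaacggaa
Ftl1 (chr7:45459780-45459807, minus strand): gtcttgcttcaaCAGTGTttgaacggaa
Tfrc (chr16:32631219-32631246, plus strand): aattatcggaagCAGTGCcttccataat
Tfrc (chr16:32631598-32631625, plus strand): cattatcgggagCAGTGTcttccataat
Tfrc (chr16:32631663-32631690, plus strand): ctatatcggagaCAGTGAtctccatatg
Tfrc (chr16:32631710-32631737, plus strand): aattatcgggaaCAGTGTttcccataat
Counts of RNA do not show translation, so values of the ferritins and of Slc40a1 below are RNA levels alone.

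Per length, on the scale of the deposited FPKM (fragments per kilobase of transcript, scaled to the mapped total), transferrin was the most abundant member and Bmp6 the least. The medians over the 19 libraries were 5138 FPKM for Trf, 3642 for Hamp, 3481 for Ftl1 and 2447 for Fth1. They were 188 FPKM for Hamp2, 113 for Tfr2 and 31.2 for Slc40a1. The transferrin receptor Tfrc stood at 3.98 FPKM, Smad7 at 2.88 and Bmp6 at 0.50. Neighbours in this order overlapped between libraries in several places: Hamp ranged from 1411 to 6879 FPKM, across the whole ranges of Trf, Ftl1 and Fth1. Tfrc (2.28 to 6.26 FPKM) overlapped Smad7 (1.45 to 4.72 FPKM), while Bmp6 (0.109 to 0.887 FPKM) stayed below every other member. Between the lowest and the highest library, CPM (counts scaled to 1e6 per library) spanned 32.4-fold in Hamp2, 8.11-fold in Bmp6, which rested on 7 to 85 counts, and 5.05-fold in Hamp, against 1.34-fold in Trf and 1.41-fold in Tfr2.

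Total counts per library lay between 24.9 and 66.9 in units of 1e6, and single members held between 7 (Bmp6) and 896237 (Trf) counts. The highest total was that of re-fed PLIN5 ASO 5, and the next was fasted control ASO 1 at 33.9. Plin5 stood at 6.14 to 13.1 CPM in the 5 fasted PLIN5 ASO libraries against 35.1 to 38.5 in fasted control ASO, and at 3.91 to 11.8 against 27.3 to 51.8 CPM in re-fed liver. In 4 libraries, called clock-shifted below, the clock gene Arntl stood at 14.6 to 45.0 CPM, against 0.566 to 4.87 in the other 15: fasted PLIN5 ASO 3 and 5 and re-fed control ASO 3 and 5. Of all pairs of libraries within a group, fasted control ASO 3 and 4 were the closest (chi-square per degree of freedom 3.23, against 18.7 for the next pair), and the labels do not say whether they are separate mice. The labels do not state for any group that replicates are separate animals, so the p-values measure the spread between these libraries. The 8 hepatocyte markers, all detected, summed to 92230 to 111933 CPM in fasted control ASO and 92086 to 123072 in fasted PLIN5 ASO. In re-fed liver they summed to 90514 to 114917 CPM with control ASO and 107701 to 158879 with PLIN5 ASO. The highest sum was that of re-fed PLIN5 ASO 2, which also held the most Hamp and the most Hamp2 of its group. The part of hepatocyte RNA in the hepcidin values was not tested. In bulk liver RNA, fewer cells of a type and less RNA per cell cannot be told apart.

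In the fasted state, both hepcidin transcripts were lower in all 5 PLIN5 ASO livers than in any of the 4 control livers, and Hamp2 passed the test. Hamp2 was the 1 member called of 10, where 1.17% of all genes tested were called. At an unadjusted p under 0.05 in edgeR, 3 members stood here, among 2003 of 13293 genes. How many of all genes tested had groups without overlap was not counted. Lack of overlap in single members, here and below, therefore has no background beside it. Hamp2 stood at 62.0, 109, 104 and 70.4 CPM in fasted control ASO 1, 3, 4 and 5. In fasted PLIN5 ASO 1 to 5 it stood at 15.5, 40.2, 4.25, 20.8 and 14.7 CPM. The groups did not overlap, and the lowest value, in library 3, was a clock-shifted one. The means were 86.5 CPM ± 23.8 (SD, n = 4) and 19.1 CPM ± 13.2 (SD, n = 5). Hamp2 fell by 2.18 on the log2 scale (SE 0.50, adjusted p = 0.0344 by the quasi-likelihood test of edgeR), with a 95% confidence interval from -3.22 to -1.14. The size of this fall was 1.76 to 2.65 under every alternative tried, but its call was lost when any 1 of fasted control ASO 1, 3, 4 or 5 or fasted PLIN5 ASO 1, 3, 4 or 5 was left out (adjusted p = 0.0605 to 0.0928 in edgeR), and with fasted control ASO 3 and 4 counted as 1 sample (adjusted p = 0.0925), in a fit of only these groups (0.0577) and in limma on unfiltered FPKM (0.0579). Without the 4 clock-shifted libraries the log2 fold change was -1.76 (adjusted p = 0.0454 in edgeR).

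Hamp stood at 1513, 1074, 993 and 840 CPM in fasted control ASO and at 703, 668, 566, 577 and 595 CPM in fasted PLIN5 ASO. The 5 PLIN5 ASO libraries lay in a narrow band below all 4 control libraries. The means were 1105 CPM ± 289 (SD, n = 4) and 622 CPM ± 60.4 (SD, n = 5). The log2 fold change was -0.83 (SE 0.30) and did not pass the test over all genes (adjusted p = 0.182 in edgeR). With the fit of only these groups its adjusted p was 0.0402. With the counts of Hamp and Hamp2 summed before the fit, which removes any exchange of reads between them, the log2 fold change was -0.90 (SE 0.30, adjusted p = 0.152 in edgeR).

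**Figure D1:**
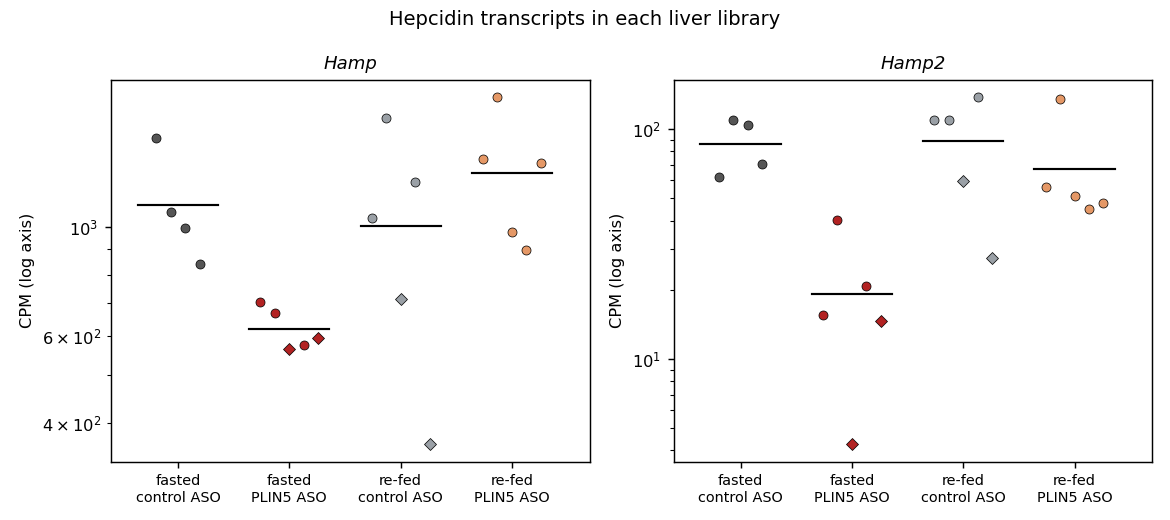
Hamp and Hamp2 in each of the 19 libraries, in CPM on a log axis, by group. Points are libraries, diamonds the 4 clock-shifted ones, and lines group means. All 5 fasted PLIN5 ASO libraries (566 to 703 CPM for Hamp, 4.25 to 40.2 CPM for Hamp2) lie below all 4 fasted control ASO libraries and all 5 re-fed PLIN5 ASO libraries.

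With PLIN5 ASO, re-fed liver held more of both hepcidin transcripts than fasted liver. This comparison and the fasted one above share the 5 fasted PLIN5 ASO libraries, so low values there enter both. Of the 10 members, 4 were called in this comparison (Smad7, Hamp2 and Hamp higher, Tfr2 lower), beside 8.64% of all genes tested. Re-fed PLIN5 ASO 1 to 5 held 1373, 1832, 976, 899 and 1346 CPM of Hamp, all above the highest fasted PLIN5 ASO library at 703 CPM. Hamp rose by 1.05 on the log2 scale (SE 0.28, adjusted p = 0.0269 in edgeR). Hamp2 stood at 55.9, 135, 51.1, 45.1 and 47.6 CPM after re-feeding, again above all 5 fasted libraries, and rose by 1.81 (SE 0.47, adjusted p = 0.0226). Library 2 held the most of both. Without it the values were 0.88 for Hamp (adjusted p = 0.0807 in edgeR) and 1.38 for Hamp2 (adjusted p = 0.0806). The call for Hamp was also lost without fasted PLIN5 ASO 3, 4 or 5 (adjusted p = 0.0551 to 0.0614 in edgeR) and in limma on unfiltered FPKM, and that for Hamp2 without fasted PLIN5 ASO 1 or 5 (adjusted p = 0.0510 and 0.0598). Without the clock-shifted libraries the log2 fold changes were 0.98 for Hamp (adjusted p = 0.0146 in edgeR) and 1.38 for Hamp2 (adjusted p = 0.0308).

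With control ASO, neither hepcidin gene passed the test for re-feeding. Re-fed control ASO 1 to 5 held 1043, 1663, 716, 1234 and 362 CPM of Hamp, a spread that ran from below to above the whole fasted control group. The log2 fold change was -0.14 (SE 0.30, adjusted p = 0.802 in edgeR; 95% confidence interval -0.76 to 0.49). Hamp2 stood at 109, 109, 59.2, 138 and 27.5 CPM, and its log2 fold change was 0.03 (SE 0.48, adjusted p = 0.973 in edgeR; 95% confidence interval -0.98 to 1.04). The lowest libraries for both genes were re-fed control ASO 3 and 5, the clock-shifted ones of that group. Without the clock-shifted libraries of all groups the log2 fold changes were 0.25 for Hamp (adjusted p = 0.546 in edgeR) and 0.46 for Hamp2 (adjusted p = 0.466).

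In re-fed liver the ASO groups overlapped for both genes. The log2 fold change of PLIN5 ASO over control ASO was 0.36 for Hamp (SE 0.28, adjusted p = 0.517 in edgeR) and -0.41 for Hamp2 (SE 0.46, adjusted p = 0.666). Leaving out the clock-shifted libraries gave -0.03 for Hamp (adjusted p = 0.960 in edgeR) and -0.83 for Hamp2 (adjusted p = 0.250). No member was called by edgeR or by DESeq2 in this comparison, where edgeR called 1.38% of all genes tested and DESeq2 612 of 13293. At an unadjusted p under 0.05, 3 members stood there (Fth1, Ftl1 and Smad7) among 2527 of 13293 genes. The difference between the ASO effects in re-fed and fasted liver was 1.19 on the log2 scale for Hamp (SE 0.41, adjusted p = 0.237 in edgeR) and 1.77 for Hamp2 (SE 0.67, adjusted p = 0.261), so a difference between feeding states was not called for either. Without the 4 clock-shifted libraries these differences were 0.74 for Hamp (adjusted p = 0.496 in edgeR) and 0.93 for Hamp2 (adjusted p = 0.569). Of all genes tested edgeR called 0.0226% for that difference, and DESeq2 called 95 of 13293. Of the members 0 were called by edgeR, 5 had an unadjusted p under 0.05 (1991 genes in all), and DESeq2 called 1, Smad7.

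**Figure D2:**
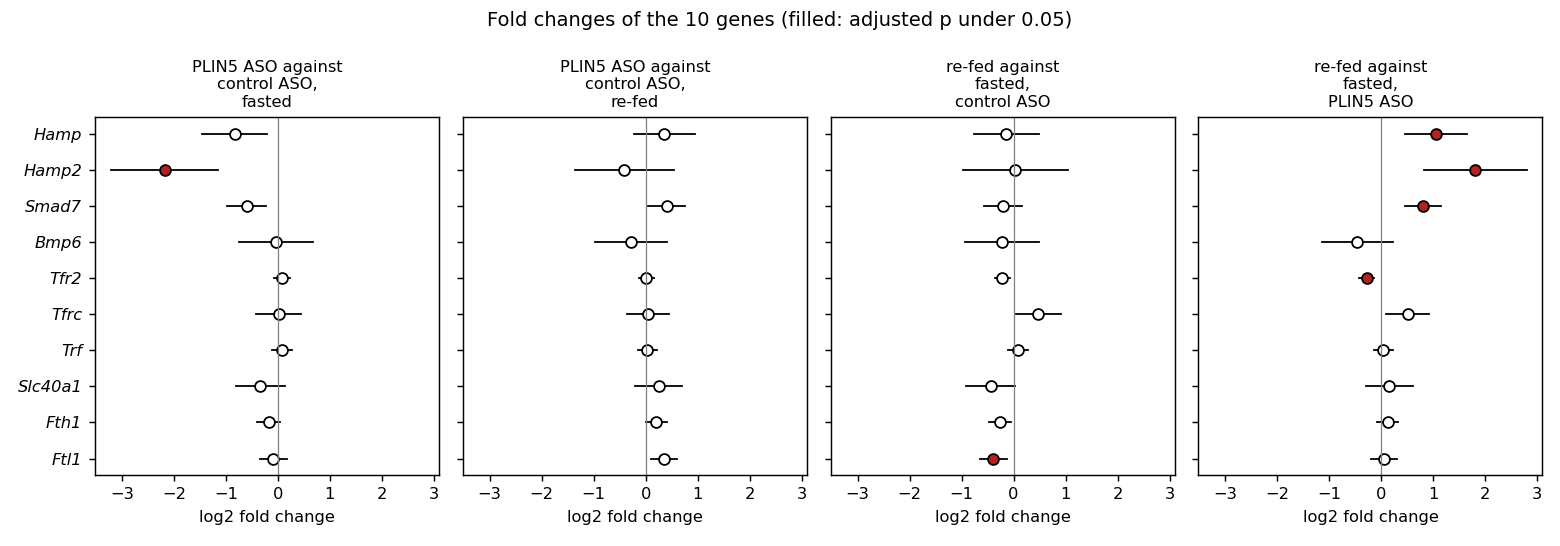
Log2 fold changes of the 10 genes with 95% confidence intervals from edgeR in the 4 comparisons between groups, filled where the adjusted p was under 0.05. Filled points are Hamp2 in the fasted ASO comparison, Ftl1 for re-feeding with control ASO, and Hamp, Hamp2, Smad7 and Tfr2 for re-feeding with PLIN5 ASO.

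As a share of all reads counted for the 2 hepcidin genes, a value that scaling between libraries cannot move, Hamp2 made up 3.94% to 9.49% in fasted control ASO and 0.746% to 5.68% in fasted PLIN5 ASO. In re-fed control ASO the share ran from 6.17% to 10.04%, and in re-fed PLIN5 ASO from 3.41% to 6.85%. The means were 7.60% ± 2.56 (SD, n = 4), 2.90% ± 1.84 (SD, n = 5), 8.07% ± 1.64 (SD, n = 5) and 4.78% ± 1.32 (SD, n = 5). The difference with PLIN5 ASO was -4.71 percentage points in fasted liver (exact permutation p = 0.0317, two-sided) and -3.29 points in re-fed liver (exact permutation p = 0.0159). Adjusted over 8 comparisons of shares and ratios both stood at 0.0847 in the exact permutation tests and did not pass. Re-feeding differed by 0.47 points with control ASO (exact permutation p = 0.786) and by 1.89 points with PLIN5 ASO (exact permutation p = 0.103).

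Smad7, the inhibitory SMAD that BMP signalling induces, had the smallest p of the members for re-feeding with PLIN5 ASO. It stood at 8.35, 7.26, 12, 12 and 10.3 CPM in fasted PLIN5 ASO and at 21.4, 15.9, 12.4, 14.9 and 22.2 CPM in re-fed PLIN5 ASO. Every re-fed library was above every fasted one. Smad7 rose by 0.80 on the log2 scale (SE 0.17, adjusted p = 0.00568 in edgeR; 95% confidence interval 0.45 to 1.15), and all 10 fits that left out 1 library kept the call. In fasted control ASO it stood at 14.0, 15.6, 17.2 and 13.8 CPM, above all 5 fasted PLIN5 ASO libraries, with a log2 fold change for PLIN5 ASO of -0.60 (SE 0.18, adjusted p = 0.103 in edgeR and 0.0405 in DESeq2). In re-fed control ASO it stood at 10.9, 16.7, 11.4, 13.5 and 13.3 CPM, and the log2 fold change for PLIN5 ASO in re-fed liver was 0.40 (SE 0.17, adjusted p = 0.199 in edgeR). The ASO effects in the feeding states thus had opposite signs, and their difference was 1.0 (SE 0.24, adjusted p = 0.154 in edgeR and 0.0213 in DESeq2). Over all 13293 genes tested, DESeq2 called 432 in the fasted comparison and 95 for the difference, where edgeR called 156 and 3.

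Bmp6, the ligand that signals iron load to hepatocytes and is made in liver mainly by sinusoidal endothelial cells, was near the lower limit of detection. Its means were 1.62 CPM ± 0.20 (SD, n = 4) in fasted control ASO, 1.58 CPM ± 0.50 (SD, n = 5) in fasted PLIN5 ASO, 1.40 CPM ± 0.49 (SD, n = 5) in re-fed control ASO and 1.14 CPM ± 0.50 (SD, n = 5) in re-fed PLIN5 ASO. It passed no test (adjusted p = 0.420 to 0.975 over the comparisons of groups in edgeR). The 12 liver endothelial markers summed to 178 to 237 CPM in fasted control ASO and 150 to 207 in fasted PLIN5 ASO, and to 160 to 286 and 145 to 225 CPM in re-fed control and PLIN5 ASO. The confidence interval of its log2 fold change for PLIN5 ASO in fasted liver ran from -0.75 to 0.67.

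Other genes of the BMP pathway were read from a list of 33 hepcidin regulators, 28 of them tested. In fasted liver 2 fell with PLIN5 ASO and 0 rose, where 1.17% of all genes tested were called. The median log2 fold change was -0.10, against 0.01 over all genes tested. Id2, a BMP target that encodes an inhibitor of DNA binding, stood at 247, 178, 177 and 180 CPM in fasted control ASO and 112, 69.9, 113, 69.9 and 100 CPM in fasted PLIN5 ASO. The groups did not overlap, and Id2 fell by 1.07 on the log2 scale (SE 0.16, adjusted p = 0.00294 in edgeR). Smad6, the other inhibitory SMAD, stood at 6.69 to 9.31 CPM against 3.23 to 4.49 CPM and fell by 0.98 (SE 0.21, adjusted p = 0.0275 in edgeR). Id3 and Id1 are named here after their values were seen. Id3 stood at 43.6 to 124 against 10.3 to 38.0 CPM (log2 fold change -1.46, SE 0.37, adjusted p = 0.0583 in edgeR) and Id1 at 15.0 to 23.5 against 5.93 to 12.7 CPM (-0.86, SE 0.34, adjusted p = 0.236). Atoh8, a further BMP target, overlapped between the groups (25.8 to 35.4 and 17.2 to 39.2 CPM, adjusted p = 0.803 in edgeR). Bambi, on the same list and also named after its values were seen, overlapped too (3.33 to 4.26 and 3.16 to 3.93 CPM).

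For re-feeding with PLIN5 ASO, 4 of the 28 rose and 2 fell, with a median of 0.02 against 0.00 over all genes. Of all genes tested 8.64% were called there. Id2 rose by 0.66 (SE 0.15, adjusted p = 0.00931 in edgeR), Id3 by 1.27 (SE 0.35, adjusted p = 0.0297), the ligand Bmp4 by 0.62 (SE 0.18, adjusted p = 0.0385) and Furin, a protease that processes hepcidin and BMP precursors, by 0.25 (SE 0.07, adjusted p = 0.0309). Those that fell were the BMP receptor Bmpr1a (-0.36, SE 0.09, adjusted p = 0.0118 in edgeR) and Creb3l3, a transcription factor of the fasted and stressed liver that can act on the hepcidin promoter (-0.50, SE 0.08, adjusted p = 0.000426). With control ASO, Creb3l3 fell by 0.53 (SE 0.08, adjusted p = 0.000377 in edgeR) and the ligand Bmp5 rose by 0.60 (SE 0.19, adjusted p = 0.0444), the calls being 1 in each direction. For that comparison 13.2% of all genes tested were called. In re-fed liver, 1 of the 28 was called for PLIN5 ASO, beside 1.38% of all genes tested. B2m, the light chain that pairs with the iron regulator HFE and with class I molecules, rose by 0.32 (SE 0.08, adjusted p = 0.0411 in edgeR). None of the 28 was called for the difference between ASO effects by edgeR; the smallest p was that of Id2 (1.14, SE 0.22, unadjusted p = 4.9e-05, adjusted p = 0.118).

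**Figure D3:**
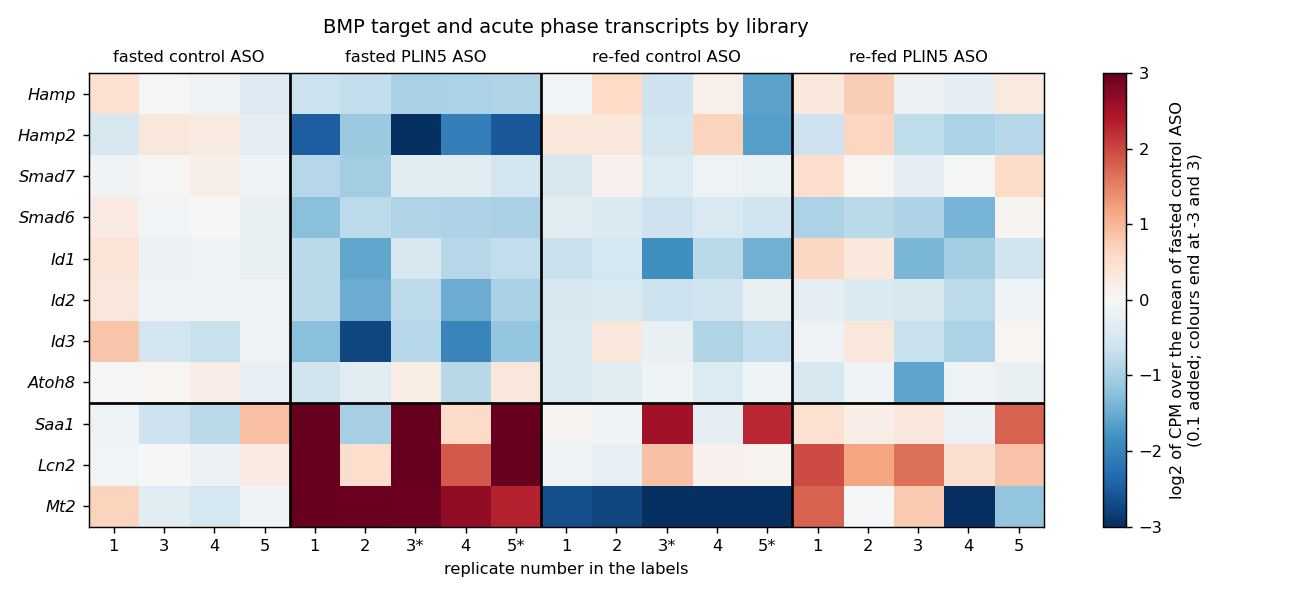
Hepcidin genes and BMP targets (upper block) and acute phase genes (lower block) in each library, as log2 of CPM over the mean of fasted control ASO with 0.1 CPM added; an asterisk marks the clock-shifted libraries. Hamp2, Smad6, Id2 and Smad7 are below the fasted control mean in all 5 fasted PLIN5 ASO libraries, while Saa1 is high in 3 of them (2174 to 4860 CPM).

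The inflammatory arm of hepcidin control was read from 12 genes of interleukin 6 and STAT3 signalling, 10 tested. Of all genes tested, 1.17% were called for PLIN5 ASO in fasted liver and 1.38% in re-fed liver. For re-feeding the shares were 13.2% with control ASO and 8.64% with PLIN5 ASO, so 1 call of 10 is close to them. In fasted liver with PLIN5 ASO 1 rose: Il6ra, the interleukin 6 receptor, by 0.97 (SE 0.22, adjusted p = 0.0345 in edgeR). For re-feeding, Jak1 rose with control ASO by 0.24 (SE 0.07, adjusted p = 0.0277 in edgeR), and Cebpb, a transcription factor of the acute phase, fell with PLIN5 ASO by 0.92 (SE 0.17, adjusted p = 0.00239). None was called by edgeR in re-fed liver (smallest p Il6st, adjusted p = 0.10) or for the difference (Cebpb, adjusted p = 0.197). Of 21 acute phase genes, 8 rose and 0 fell with PLIN5 ASO in fasted liver (median 0.83, against 0.01 over all genes), and 11 fell and 1 rose with re-feeding under PLIN5 ASO (median -0.63, against 0.00). With PLIN5 ASO in re-fed liver 2 rose, and with re-feeding under control ASO 2 fell, Mt1 and Mt2, which encode metallothioneins, in both cases. Mt2 stood at 21.5, 10.8, 9.37 and 12.5 CPM in fasted control ASO and at 142, 106, 105, 86.1 and 67.4 CPM in fasted PLIN5 ASO. In re-fed liver it stood at 2.08, 1.96, 0.834, 1.11 and 1.37 CPM with control ASO and at 46.6, 13.1, 23.5, 1.13 and 5.89 CPM with PLIN5 ASO, where library 4 alone fell inside the control range.

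Fasted PLIN5 ASO, the group with called rises of acute phase genes, was thus also the group in which Hamp2 was called lower. Hamp was lower there without passing the test (adjusted p = 0.182 in edgeR). The sum of the 21 acute phase genes was high in libraries 1, 3 and 5 only, at 41951, 46979 and 35731 CPM, as was Saa1. Saa1, a serum amyloid A gene, stood at 4170, 40.6, 4860, 121 and 2174 CPM in fasted PLIN5 ASO 1 to 5, against 46.5 to 152 CPM in fasted control ASO. In libraries 1, 3 and 5 Hamp stood at 703, 566 and 595 CPM and Hamp2 at 15.5, 4.25 and 14.7 CPM. In libraries 2 and 4, with Saa1 at 40.6 and 121 CPM, Hamp stood at 668 and 577 CPM and Hamp2 at 40.2 and 20.8 CPM. Both genes were below every fasted control library there, and Hamp2 was above its values in libraries 1, 3 and 5. The 21 acute phase genes summed to 22046 and 21902 CPM there, inside the fasted control range of 20971 to 24865 CPM. Mt2 (106 and 86.1 CPM) was above every fasted control library there. So were Lcn2 (10.1 and 25.5 CPM) and Hp (3780 and 4244 CPM), acute phase genes outside the list of 21. Saa2 (22.3 and 58.1 CPM) lay inside the fasted control range of 21.6 to 61.9 CPM, and Saa1 of library 2 lay below every fasted control library. Whether the acute phase has a part in the hepcidin values was not tested. The 12 Kupffer cell and macrophage markers, all detected, summed to 152 to 181 CPM in fasted control ASO and to 174 to 451 CPM in fasted PLIN5 ASO, highest in libraries 3 and 5. In re-fed liver they summed to 148 to 233 CPM with control ASO and 131 to 267 CPM with PLIN5 ASO. The 12 stellate cell markers summed to 161 to 193 CPM in fasted control ASO and 205 to 299 CPM in fasted PLIN5 ASO, and to 197 to 234 and 174 to 285 CPM in re-fed control and PLIN5 ASO. The part of these cells in the hepcidin result was not tested. Of the 12 erythroid markers, 10 were in the table; 9 of 10 globin rows held 0 counts in every library, although the deposited FPKM of Hbb-b1 was 70.1 to 212, so blood content cannot be read from the globin counts. Alas2, the erythroid form of the first heme synthesis enzyme and named here after its values were seen, stood at 133 to 170 CPM in fasted PLIN5 ASO and 140 to 162 in fasted control ASO, and at 161 to 215 and 156 to 203 CPM in re-fed PLIN5 and control ASO.

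**Figure D4:**
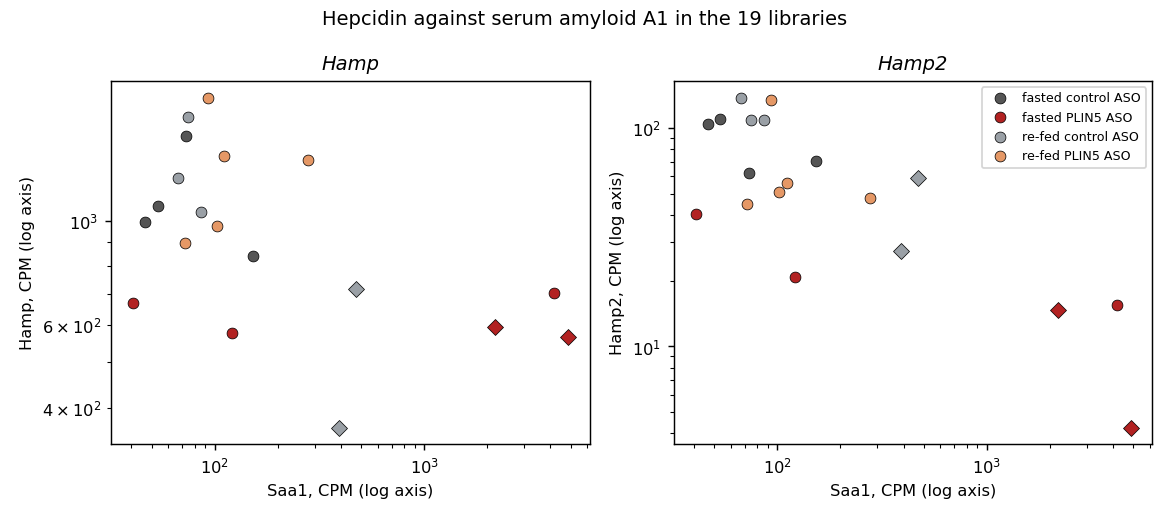
Hamp and Hamp2 against Saa1 in the 19 libraries, all in CPM on log axes, coloured by group, with diamonds for the clock-shifted libraries. The fasted PLIN5 ASO libraries with Saa1 at 40.6 and 121 CPM held Hamp at 668 and 577 CPM and Hamp2 at 40.2 and 20.8 CPM. Those with Saa1 at 2174 to 4860 CPM held Hamp at 566 to 703 CPM and Hamp2 at 4.25 to 15.5 CPM.

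Tfr2, the hepatocyte transferrin receptor that takes part in iron sensing upstream of hepcidin, was lower after re-feeding with PLIN5 ASO. It stood at 505, 450, 515, 461 and 496 CPM in fasted PLIN5 ASO and at 414, 406, 365, 379 and 432 CPM in re-fed PLIN5 ASO, with no overlap. Tfr2 fell by 0.28 on the log2 scale (SE 0.07, adjusted p = 0.0136 in edgeR), with the call kept in all 10 fits that left out 1 library. Without the 4 clock-shifted libraries it was -0.24 (adjusted p = 0.0569 in edgeR). With control ASO it stood at 474, 439, 441 and 484 CPM fasted and at 377, 392, 443, 377 and 394 CPM re-fed, where library 3 reached into the fasted range. The log2 fold change was -0.21 (SE 0.07, adjusted p = 0.0554 in edgeR), and -0.26 without that library (adjusted p = 0.0311), the 1 call among 9 fits that left out a library. Without fasted control ASO 5 the adjusted p was 0.144 in edgeR. The ASO made no called difference to Tfr2 in either state (adjusted p = 0.666 in fasted and 0.953 in re-fed liver in edgeR), nor to its response to re-feeding (adjusted p = 0.764).

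Tfrc, the transferrin receptor that imports iron into most cells and whose transcript carries the 4 hairpins shown above, stood at 12, 21.1, 23.0 and 13.6 CPM with control ASO in the fasted state and at 19.5, 21.3, 25, 24.0 and 31.5 CPM once re-fed. With PLIN5 ASO it stood at 17.1, 17.0, 17.6, 18.4 and 18.2 CPM fasted and at 21.1, 30.3, 32.0, 27.7 and 14.8 CPM re-fed. The groups overlapped under both ASOs. The log2 fold changes for re-feeding were 0.48 with control ASO (SE 0.21, adjusted p = 0.134 in edgeR) and 0.51 with PLIN5 ASO (SE 0.20, adjusted p = 0.117). The low re-fed PLIN5 ASO library was number 5, which had the highest total count of all libraries. Without it the value was 0.65 (adjusted p = 0.0278 in edgeR), the 1 call among 10 fits that left out a library. Without re-fed PLIN5 ASO 3, the highest, it was 0.41 (adjusted p = 0.267). Between the ASO groups Tfrc had adjusted p = 0.980 fasted and 0.921 re-fed in edgeR.

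Trf, which encodes the plasma iron carrier transferrin, had the smallest fold between its lowest and highest library, the 1.34 given above. Its means were 11563 CPM ± 656 (SD, n = 4), 12201 CPM ± 1520 (SD, n = 5), 12258 CPM ± 1036 (SD, n = 5) and 12552 CPM ± 369 (SD, n = 5) in fasted control, fasted PLIN5, re-fed control and re-fed PLIN5 ASO. It made up 1.05% to 1.40% of all counts in a library. The adjusted p was 0.599 to 0.872 over the comparisons of groups in edgeR, and the confidence intervals lay between -0.15 and 0.28 on the log2 scale.

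Slc40a1, the gene of ferroportin and so of the target of hepcidin, stood at 123, 111, 121 and 134 CPM in fasted control ASO and at 93.9, 100, 99.8, 108 and 80.4 CPM in fasted PLIN5 ASO. All 5 PLIN5 ASO libraries were below all 4 controls, but the comparison did not pass the test (adjusted p = 0.516 in edgeR). In re-fed control ASO it stood at 131, 126, 56.6, 80.1 and 55.9 CPM and in re-fed PLIN5 ASO at 108, 110, 112, 66.1 and 139 CPM. The lowest re-fed control values were again in the clock-shifted libraries 3 and 5. The log2 fold change for re-feeding with control ASO was -0.44 (SE 0.23, adjusted p = 0.205 in edgeR), and -0.12 without the 4 clock-shifted libraries (adjusted p = 0.743). Liver macrophages as well as hepatocytes make ferroportin. Of the 12 macrophage markers, 2 rose with PLIN5 ASO in fasted liver, C1qa and C1qb, where 1.17% of all genes tested were called. The log2 fold changes of all 12 were above 0 there, while that of Slc40a1 was -0.34. All 12 markers together summed to 192, 174, 451, 225 and 314 CPM in fasted PLIN5 ASO 1 to 5, against at most 181 CPM in fasted control ASO. The part of macrophages in the Slc40a1 values was not tested.

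Fth1 and Ftl1 encode the heavy and light subunits of ferritin, the shell that stores iron. Ftl1 was the 1 member called for re-feeding with control ASO, where 13.2% of all genes tested were called, so that 1 of 10 is close to the background. It stood at 3124, 3865, 3913 and 2891 CPM in the fasted group of that ASO, against 2502, 2971, 2530, 2709 and 2405 CPM in the re-fed one. Fasted libraries 3 and 4 were the highest, and re-fed library 2 reached above fasted library 5. Ftl1 fell by 0.39 on the log2 scale (SE 0.12, adjusted p = 0.0413 in edgeR). The call was lost without fasted control ASO 3 or 4 or re-fed control ASO 1, 3, 4 or 5 (adjusted p = 0.0530 to 0.134 in edgeR), without the 4 clock-shifted libraries (0.169), and with fasted control ASO 3 and 4 as 1 sample, in a fit with the trend on transcript length taken out, and on FPKM.

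With PLIN5 ASO, Ftl1 stood at 3116, 3525, 3061, 3556 and 2983 CPM fasted and at 3902, 4145, 2882, 2926 and 2945 CPM re-fed. The re-fed libraries fell on both sides of the fasted ones (adjusted p = 0.845 in edgeR). In re-fed liver Ftl1 had a log2 fold change for PLIN5 ASO of 0.36 (SE 0.12, adjusted p = 0.116 in edgeR), with libraries 1 and 2 above all controls and the other 3 inside their range. In the re-fed groups Fth1 counts were 1765, 1987, 1786, 1946 and 1783 CPM with control ASO, and 2293, 2225, 2122, 2052 and 2007 CPM with PLIN5 ASO. These groups did not overlap, yet the log2 fold change of 0.21 (SE 0.10) did not pass (adjusted p = 0.252 in edgeR). In fasted control ASO Fth1 stood at 1988, 2491, 2451 and 1990 CPM, all above the highest re-fed control library (1987 CPM), and the log2 fold change for re-feeding under that ASO was -0.27 (SE 0.10, adjusted p = 0.0881 in edgeR). The log2 ratio of Ftl1 to Fth1 counts had means of 0.62 ± 0.06 (SD, n = 4) in fasted control ASO, 0.73 ± 0.09 (SD, n = 5) in fasted PLIN5 ASO, 0.50 ± 0.05 (SD, n = 5) in re-fed control ASO and 0.63 ± 0.19 (SD, n = 5) in re-fed PLIN5 ASO. For re-feeding with control ASO it differed by -0.13 (exact permutation p = 0.0238, 0.0847 adjusted over the same 8 comparisons), and the other 3 differences had exact permutation p = 0.103 to 0.349.

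**Figure D5:**
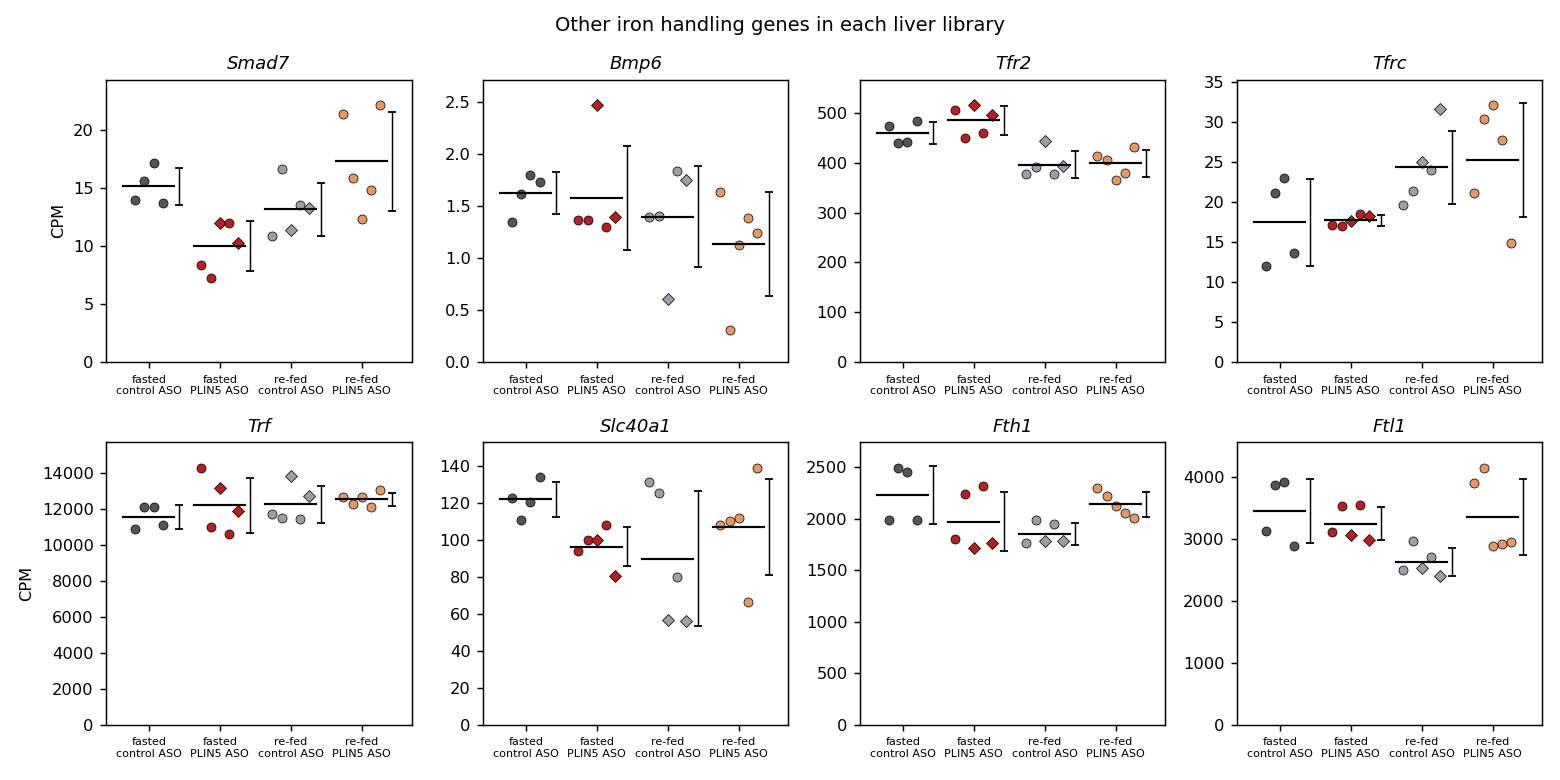
The 8 members other than the hepcidins in each library, in CPM from 0, by group. Points are libraries, diamonds the 4 clock-shifted ones, lines group means and bars 1 SD. Smad7 in fasted PLIN5 ASO (7.26 to 12 CPM) lies below fasted control ASO and re-fed PLIN5 ASO, and Tfr2 is lower in re-fed than in fasted PLIN5 ASO.

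Of 31 further genes of cellular iron handling, 27 were tested. Shares called over all genes were 1.17% for PLIN5 ASO in fasted liver, 13.2% for re-feeding with control ASO and 8.64% with PLIN5 ASO. With PLIN5 ASO in fasted liver 2 rose and 1 fell (median 0.05, against 0.01 over all genes). Lcn2, which encodes the siderophore-binding lipocalin 2 and is also an acute phase gene, rose by 5.02 (SE 0.83, adjusted p = 0.00707 in edgeR), with 332, 10.1, 540, 25.5 and 222 CPM in PLIN5 ASO 1 to 5 against 6.12 to 8.25 CPM in the controls. Scara5, a receptor for ferritin, rose by 1.39 (SE 0.32, adjusted p = 0.0345 in edgeR), and Fbxl5, the iron-sensing subunit of the ligase that removes iron regulatory protein 2, fell by 0.39 (SE 0.09, adjusted p = 0.0314). For re-feeding, Scara5 rose with control ASO, from 2.0, 3.94, 4.11 and 7.33 CPM to 16.6, 21.4, 31.5, 13.5 and 25.5 CPM (log2 fold change 2.33, SE 0.32, adjusted p = 0.00018 in edgeR). It also rose with PLIN5 ASO, from 9.67 to 15.1 CPM fasted to 22.1 to 53.8 CPM re-fed (1.88, SE 0.28, adjusted p = 0.000376 in edgeR). No fasted library reached the lowest re-fed one of its ASO. With control ASO 1 further gene fell, Pcbp2, an RNA-binding protein that also carries iron (-0.43, SE 0.08, adjusted p = 0.00262 in edgeR). With PLIN5 ASO 3 rose and 1 fell: beside Scara5, Bdh2, a hydroxybutyrate dehydrogenase, rose by 0.88 (SE 0.20, adjusted p = 0.00871 in edgeR), Fbxl5 by 0.31 (SE 0.08, adjusted p = 0.0212), and Lcn2 fell by 3.68 (SE 0.71, adjusted p = 0.00263). None was called by edgeR for PLIN5 ASO in re-fed liver (smallest p Scara5, 0.94, adjusted p = 0.0812) or for the difference (Lcn2, adjusted p = 0.168).

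Of 22 genes of heme synthesis, scavenging and breakdown, 20 were tested. For PLIN5 ASO in fasted liver, 1.17% of all genes were called. In fasted liver 1 rose with PLIN5 ASO, the haemoglobin scavenger haptoglobin (Hp), also an acute phase gene, from 3358 to 3445 CPM in the controls to 7825, 3780, 8149, 4244 and 5764 CPM (0.81, SE 0.19, adjusted p = 0.0434 in edgeR). With re-feeding 4 of the 20 fell and 0 rose under each ASO, where 13.2% of all genes were called with control ASO and 8.64% with PLIN5 ASO. The median log2 fold changes of the list were -0.05 and -0.07, against 0.03 and 0.00 over all genes. With control ASO these were the heme transporter Slc48a1 (-0.45, SE 0.07, adjusted p = 0.000515 in edgeR), biliverdin reductase Blvrb (-0.57, SE 0.15, adjusted p = 0.0147), and the heme synthesis enzymes Alad (-0.37, SE 0.10, adjusted p = 0.0219) and Cpox (-0.33, SE 0.09, adjusted p = 0.0241). With PLIN5 ASO they were Cpox (-0.56, SE 0.09, adjusted p = 0.000451 in edgeR), the exporter Abcg2 (-0.42, SE 0.10, adjusted p = 0.0100), Lrp1, a receptor of the hemopexin and heme complex (-0.37, SE 0.09, adjusted p = 0.0170), and Slc48a1 (-0.24, SE 0.07, adjusted p = 0.0281). The comparisons of re-feeding share no libraries with each other. None of the 20 was called by edgeR for PLIN5 ASO in re-fed liver or for the difference (smallest p Slc46a1 in both, adjusted p = 0.0752 and 0.240).

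The genes whose log2 CPM followed Hamp most closely over the 19 libraries were Atp8b5 (Pearson r = 0.86, at 0.377 to 2.30 CPM), Fam109a (0.80) and Urgcp (0.80). Among those for Hamp2 were Rnf145 (r = 0.91) and Uqcrc2 (0.91). Taken as deviations from the group means, which removes the group differences, the r values were 0.82, 0.73 and 0.69 for Hamp and 0.77 and 0.84 for Hamp2. Hamp and Hamp2 themselves had r = 0.70 over libraries and 0.61 as deviations, and Fth1 and Ftl1 0.81 and 0.78. These are descriptions: the libraries share their scaling and the clock-shifted ones, the genes named were chosen for high r among all genes tested, and reads may pass between the hepcidin genes.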

How the data were processed

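Liver total RNA of 19 libraries in 4 groups was sequenced after extraction with an RNeasy kit, per the labels. HISAT2 2.0.2, Subread, Cuffdiff 2.2.1, edgeR and FastQC, and the builds GRCm38 and mm10, appear in the submitters' processing notes without a stated role. The annotation, the strandedness of counting and how shared reads were assigned: not given in the sources used here. Whole-number read counts and FPKM values, for 24421 and 24347 gene symbols, were deposited by the authors. Among them, 27 symbols in the count table had been turned into dates and could not be matched.

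Counts were tested in R 4.3.3 with edgeR 4.0.16: TMM scaling, the filterByExpr filter by group (minimum count 10), 1 fit of all 19 libraries, and a two-sided quasi-likelihood F test, Benjamini-Hochberg adjusted over the 13293 genes tested, threshold 0.05. Levels are CPM on TMM-scaled libraries. The 5 comparisons were the ASO effect in each feeding state, re-feeding under each ASO, and the difference between the ASO effects. Shares and ratios within a library were compared by exact permutation. The fit was tested on simulated counts, with the spread set by abundance alone and no clock-shifted libraries. Of genes changed 2-fold it found 73.1% to 88.1% in the comparisons of groups and 56.7% for the difference. Of genes changed 1.5-fold it found 16.4% for the difference. Unchanged genes made up 1.32% to 9.66% of the calls, most for re-feeding with control ASO. Total counts per library (24.9 to 66.9 in units of 1e6) limit precision for Bmp6 most. Alternatives were RLE scaling, no or a stricter filter (1 CPM in 4 libraries), DESeq2 1.42.0, the groups compared alone, a replicate block, each library left out, fasted control ASO 3 and 4 as 1 sample, the 4 clock-shifted libraries left out, a transcript-length correction in 25 bins, limma 3.58.1 on log2(FPKM + 1 or 0.1), and Hamp and Hamp2 summed.

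The members and the lists, comparisons and alternatives were chosen with earlier results of these data known. All members are named, and of each of the 4 other pathway lists up to 6 called genes per comparison or, with none called, the one with the smallest p. Of the acute phase genes, Saa1, Lcn2 and Mt2 are given as values per library. Saa2, added after its values were seen, is given for fasted PLIN5 ASO 2 and 4. Promoters are from RefSeq (GRCm38.p6), positions and transcripts from GENCODE (GRCm38), aligned with Biopython 1.88. For Hamp and Hamp2 the 3 tested genes with the highest Pearson r of log2 CPM were taken as most alike; 1 of those for Hamp2 is not reported here.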

Additional observations from a re-analysis of the deposited data

Results flagged for a closer look

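Of the 40 sets of 4 or 5 libraries (10 genes in 4 groups), 3 held a library far from the others of its group by Dixon's gap test, which chance alone flags in about 1 of 20 such sets. Hamp2 stood at 135 CPM in re-fed PLIN5 ASO 2, with the next library of the group at 55.9 CPM. Tfr2 stood at 443 CPM in re-fed control ASO 3, a clock-shifted library, with the next at 394 CPM. Bmp6 stood at 2.47 CPM in fasted PLIN5 ASO 3, also clock-shifted and the library with the highest Saa1 (4860 CPM) and the highest sum of macrophage markers (451 CPM), with the next at 1.40 CPM. The part of these in the values was not tested.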

How the results depend on the processing

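The number of members called changed as follows. For PLIN5 ASO in fasted liver (1) it was 2 with DESeq2 and 0 with fasted control ASO 3 and 4 as 1 sample, with limma on unfiltered FPKM and with the hepcidin genes summed, and 0 to 1 when 1 library was left out. For re-feeding with control ASO (1) it was 2 with RLE scaling, the stricter filter and DESeq2, 0 with fasted control ASO 3 and 4 as 1 sample, with the length correction and in the 3 fits on FPKM, and 0 to 1 with 1 library left out. For re-feeding with PLIN5 ASO (4) it was 3 without the clock-shifted libraries, with limma on unfiltered FPKM and with the hepcidin genes summed, and 2 to 5 with 1 library left out, 2 without fasted PLIN5 ASO 5 or re-fed PLIN5 ASO 2. For the difference between ASO effects (0) it was 1 with DESeq2. In every comparison DESeq2 called more of all genes tested than edgeR did. Same-numbered libraries did not deviate together (correlations -0.21 to 0.17), so the numbers were not taken as pairs; a replicate block gave 2 calls for re-feeding with control ASO, turned Hamp2 there to -0.32, and left the counts of the other comparisons as they were. Near-zero values for re-feeding with control ASO changed sign: Hamp2 was -0.0827 to -0.0838 in the 3 fits on FPKM and -0.18 to 0.26 with 1 library left out, Hamp 0.25 without the clock-shifted libraries and -0.397 to 0.0728 with 1 left out, and the Hamp2 share difference -0.75 to 1.1 points. Hamp for PLIN5 ASO in re-fed liver was -0.0318 without the clock-shifted libraries. The cause was not tested for any of these. Of the 50 fold changes of members, 27 were of a hepcidin gene or had an unadjusted p under 0.1, and 3 of these changed sign under some setting. Of the other 23, none of them called, 12 did. Bmp6, at 7 to 85 counts, is the member that depth limits most, and unknown treatment of shared reads limits the split between Hamp and Hamp2.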
